A study of Sus scrofa with 2 samples.

Results

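GTSF1, ALPK2, GPC3, ARPP21, CHST7, CALCRL and SLC10A4 are 7 of the 22342 genes counted in the somatic cells of 2 pig antral follicles, and were chosen by their UMI counts, which were low or near 0 in one follicle and not in the other. Each was found by its symbol in the deposited gene list, and its unique molecular identifiers (UMIs, 1 per captured transcript) were taken over every deposited barcode of both libraries. Both follicles came from 1 Landrace × Yorkshire pig of 210 days that had been primed with pregnant mare serum gonadotropin, and both were healthy and over 7 mm across. The cells are granulosa cells flushed out with the follicular fluid, and the study's protocol also frees cumulus cells from the oocyte with hyaluronidase. The labels number the follicles 1 and 2, and the deposited data name them AF75 and AF76, the names used below. AF75 gave 14289 barcodes and 125409747 UMIs, with a median of 9487 per barcode, and AF76 gave 15548 barcodes and 127414267 UMIs, with a median of 6131.

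With 1 library for each follicle, a difference between follicles and one between libraries cannot be told apart, and no test was made. Because the gap between the follicles chose the genes, it is given as a description. Levels are UMIs of a gene per 1000000 UMIs of the library or class (CPM). All intervals are exact at 95% and cover counting error only. They treat each UMI as a separate draw, which UMIs of 1 barcode are not. For genes whose UMIs gather in few barcodes they are therefore too narrow. In summed UMIs, fewer cells that use a gene and less RNA per cell cannot be told apart. A set of 56 barcode sequences occurred in both libraries. In AF76, 1 of them held ALPK2 and 2 held CHST7, and the same sequences held no UMI of these genes in AF75. Both libraries had the granulosa genes INHA, INHBA, CYP11A1, FST, FSHR and CYP19A1, and at most 25 barcodes in either met the immune rule (10 or more UMIs over 3 or more immune markers).

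Before ovulation, granulosa cells part into mural cells on the follicle wall and cumulus cells around the oocyte. Cumulus cells build a hyaluronan matrix that is held together by proteins such as TNFAIP6, whose gene is induced by the ovulatory stimulus. The 7 genes belong to no single pathway. CALCRL is a receptor coupled to cyclic AMP that binds adrenomedullin and calcitonin gene-related peptide with a RAMP partner, and GPC3 is a heparan sulfate proteoglycan of the cell surface that tunes Wnt and hedgehog signals. SLC10A4 is an orphan member of the bile acid transporter family known from synaptic vesicles. ALPK2 is an atypical kinase of the alpha kinase family, and ARPP21 is an RNA-binding phosphoprotein that protein kinase A phosphorylates. GTSF1 works with Piwi proteins in the silencing of transposons in germ cells. CHST7 is a Golgi sulfotransferase that adds sulfate to chondroitin and related sugars.

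The bases just before the annotated starts of 5 of these genes are shown because those 5 were found in the same cells of AF75, as described further on. RefSeq on Sscrofa11.1 places them at chr13:20955164-20955413 on the plus strand for ARPP21, chr8:38378628-38378877 on the plus strand for SLC10A4, chr1:162174991-162175240 on the plus strand for ALPK2, chr15:92332460-92332709 on the minus strand for CALCRL and chrX:109973606-109973855 on the minus strand for GPC3. Each run holds 250 bases, 5′ to 3′ along the gene, and capitals mark every match to a searched motif on either strand.
ARPP21: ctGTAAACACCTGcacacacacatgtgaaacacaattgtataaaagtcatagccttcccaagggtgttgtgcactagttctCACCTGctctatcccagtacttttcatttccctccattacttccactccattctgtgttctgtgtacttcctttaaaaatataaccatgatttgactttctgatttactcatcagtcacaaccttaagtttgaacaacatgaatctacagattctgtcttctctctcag
SLC10A4: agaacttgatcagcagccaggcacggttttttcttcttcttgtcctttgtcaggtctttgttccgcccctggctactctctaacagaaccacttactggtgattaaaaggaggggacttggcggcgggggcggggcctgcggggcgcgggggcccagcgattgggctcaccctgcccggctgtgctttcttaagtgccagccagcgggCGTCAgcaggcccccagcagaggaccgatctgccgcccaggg
ALPK2: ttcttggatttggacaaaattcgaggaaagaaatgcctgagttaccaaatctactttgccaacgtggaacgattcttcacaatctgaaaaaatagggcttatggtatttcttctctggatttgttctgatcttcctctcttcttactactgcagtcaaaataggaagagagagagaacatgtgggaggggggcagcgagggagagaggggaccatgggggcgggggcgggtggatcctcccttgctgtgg
CALCRL: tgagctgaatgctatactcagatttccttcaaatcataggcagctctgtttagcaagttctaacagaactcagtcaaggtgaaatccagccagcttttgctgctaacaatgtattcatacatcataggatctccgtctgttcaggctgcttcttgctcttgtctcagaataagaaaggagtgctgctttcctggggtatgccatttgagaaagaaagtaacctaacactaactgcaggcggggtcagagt
GPC3: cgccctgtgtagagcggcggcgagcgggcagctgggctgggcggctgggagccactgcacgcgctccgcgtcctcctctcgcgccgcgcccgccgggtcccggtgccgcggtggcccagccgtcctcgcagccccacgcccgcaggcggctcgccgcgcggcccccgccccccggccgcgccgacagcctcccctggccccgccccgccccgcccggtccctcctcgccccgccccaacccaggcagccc
The motifs searched were the cyclic AMP site, which is the core TGACG of the cyclic AMP response element, the motif AAGGTCA bound by SF1 and LRH1, the motif GTAAACA bound by FOXO factors, the E-box CAGGTG and the motif TGATAA of the GATA family. The window searched ran 50 bases further than the printed runs, into the gene. ARPP21 held 1 FOXO match, which overlaps the first of its 2 E-box matches. SLC10A4 held 2 cyclic AMP sites, 1 of them at the start itself and so outside the printed run. ALPK2, CALCRL, GPC3, GTSF1 and CHST7 held none of the 5 motifs. Of 19481 RefSeq promoters of the same length, 24.3% held the cyclic AMP site, 22.4% the E-box and 2.64% the FOXO motif. No motif was found in more than 1 of the 7 genes. The windows also differed in composition, from 38.3% G or C and no CpG in ARPP21 to 83.3% and 46 CpG in GPC3, where the median promoter had 58.7%.

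GTSF1 had 1577 UMIs in 907 barcodes of AF75 and 3 UMIs in 3 barcodes of AF76. Its level was 12.6 CPM (11.96 to 13.2) against 0.0235 (0.00486 to 0.0688), a ratio of AF76 to AF75 of 0.00187 (0.000386 to 0.00548). By summed CPM it was the lowest ratio among the 10086 genes with 200 or more UMIs in AF75. By the mean of the per-barcode CPM, which weights barcodes equally, the ratio of GTSF1 was 0.00564. None of the oocyte genes ZP2, ZP3, ZP4, BMP15, DAZL, FIGLA and OOSP2 had a UMI in AF75, while DDX4 had 2 there and GDF9 633. In AF76 ZP2, ZP3 and ZP4 had 3, 6 and 4 UMIs, DDX4 had 6 and GDF9 661. In AF75 barcodes with GTSF1, GDF9 stood at 1.14 times its level in the others.

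ALPK2 had 3007 UMIs in 881 barcodes of AF75 and 28 in 27 barcodes of AF76, and single AF75 barcodes held up to 50 of them. Its level was 24.0 CPM (23.1 to 24.9) against 0.220 (0.146 to 0.318), a ratio of 0.00917 (0.00608 to 0.0133). ARPP21 had the most UMIs of the 7 genes, 6991 in 2047 barcodes of AF75, or 14.3% of them (13.8% to 14.9%), against 82 in 62 barcodes of AF76. Its levels of 55.7 CPM (54.4 to 57.1) and 0.644 (0.512 to 0.799) gave a ratio of 0.0115 (0.00917 to 0.0144). ALPK2 and ARPP21 ranked 5 and 6 from the lowest ratio.

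CALCRL had 1430 UMIs in 492 barcodes of AF75 and 35 in 17 barcodes of AF76, levels of 11.4 CPM (10.8 to 12.01) and 0.275 (0.191 to 0.382) and a ratio of 0.0241 (0.0167 to 0.0337). Without the immune-like and endothelial-like barcodes, left out after seeing the data, the ratio of CALCRL was 0.0104, and with the study's limits on genes and mitochondrial UMIs it was 0.0122. Its few AF76 UMIs were not spread evenly. One AF76 barcode of 7221 UMIs held 15 of the 35, together with UMIs of all 7 endothelial markers in the gene list, 256 UMIs of CCL21, 14 of LYVE1, 24 of MMRN1 and 16 of RAMP2, and none of TNFAIP6. Another 5 lay in 4 immune-like barcodes. GPC3, the scarcest of the 7 in AF75, had 304 UMIs in 200 barcodes there and 17 in 17 barcodes of AF76, at 2.42 CPM (2.16 to 2.71) and 0.133 (0.0777 to 0.214), a ratio of 0.0550 (0.0316 to 0.0896). SLC10A4 had 1968 UMIs in 886 barcodes of AF75 and 117 in 102 of AF76, at 15.7 CPM (15.01 to 16.4) and 0.918 (0.759 to 1.10), a ratio of 0.0585 (0.0481 to 0.0705). By mean per-barcode CPM the ratio was 0.0345 for SLC10A4 and 0.0371 for GPC3.

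CHST7 went against the description of near absence. It had 1577 UMIs in 1087 barcodes of AF75 and 375 in 281 barcodes of AF76, 7.61% (7.18% to 8.05%) and 1.81% (1.60% to 2.03%) of the barcodes. Its level was 12.6 CPM (11.96 to 13.2) against 2.94 (2.65 to 3.26), so it was 4.27-fold lower in AF76, and it ranked 49 from the lowest ratio. TNFAIP6 itself stood at the same ratio of 0.234, with 114218 UMIs in AF75 and 27203 in AF76. CHST7 is therefore described below as a gene with a lower level in AF76, and the other 6 as genes with few UMIs there.

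**Figure D1:**
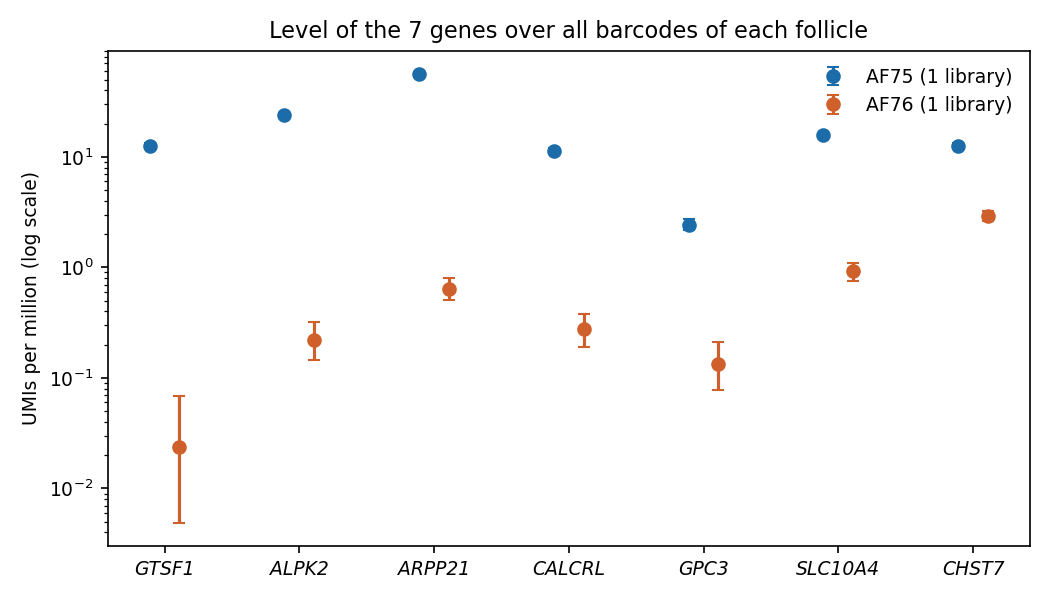
CPM (UMIs per 1000000, log scale) of the 7 genes over all barcodes of AF75 (blue) and AF76 (orange), 1 library each, with exact Poisson 95% intervals. The AF75 points lie between 2.42 and 55.7 and the AF76 points between 0.0235 and 2.94, with the smallest gap for CHST7 and the widest for GTSF1.

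A ratio of 0.1 or less was reached by 6 of the 7 genes and by 0.194% of the 10290 genes with 200 or more UMIs in either library. The rule used this contrast, so nothing is read from that count. Of the 6, GPC3 and SLC10A4 had the ratios nearest to 0.1, at 0.0550 and 0.0585, and CHST7 was the member outside that limit. The median gene had a ratio of 0.998. The 5 other genes with the lowest ratios were CD209 (665 and 2 UMIs), PTGS2 (1103 and 26), SHAS2 (10144 and 344) and 2 genes listed by identifier alone, ENSSSCG00000003047 (1234 and 4) and ENSSSCG00000036545 (266 and 2). CD209, a lectin of macrophages, is a case apart, since 633 of its 665 UMIs were in the 4 immune-like barcodes of AF75. The 7 genes had at most 2 UMIs each in those 4 barcodes.

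Barcodes of AF76 were shallower, so each barcode was also thinned to 5000 UMIs, which left out 4543 barcodes of AF75 and 7387 of AF76. ARPP21 was then found in 11.8% of the thinned AF75 barcodes (11.2% to 12.5%) and in 0.319% of those of AF76 (0.208% to 0.466%). GTSF1 was found in 4.74% (4.33% to 5.18%) and in 0 of 8161 barcodes, which allows a share of up to 0.0368%. For ALPK2 the shares were 5.13% and 0.110%, for CALCRL 2.66% and 0.135%, for SLC10A4 4.98% and 0.355%, for GPC3 0.923% and 0.0980% and for CHST7 5.19% and 1.27%. All 7 genes were also found in fewer of the AF76 barcodes at this depth. As ratios of these shares, ALPK2 stood at 0.0215, ARPP21 at 0.0270, CALCRL at 0.0507, SLC10A4 at 0.0714, GPC3 at 0.106 and CHST7 at 0.245, and GTSF1 at 0.00775 with 3 barcodes taken as its limit. GPC3 thus left the limit of 0.1, and 5 of the 7 genes stayed within it.

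Red blood cells should lack these genes and could set a background of free RNA, but only 8 barcodes of AF75 and 36 of AF76 had 50% or more of their UMIs from red blood genes. None held a UMI of the 7 genes, which allows up to 37.5% and 8.33% of such barcodes. At the level of the other AF75 barcodes, the 8 would have held 1.42 UMIs of ARPP21 and fewer of each other gene. They are too few to say how much of the low AF76 counts is free RNA. In AF76, where GTSF1, GPC3 and ALPK2 never exceeded 2 UMIs in a barcode, a UMI is not read as expression by that cell.

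The UMIs of AF75 were gathered in fewer barcodes than depth alone would give. If the UMIs of ALPK2 had been dealt out by depth, 2586 barcodes would have held one, and 881 did, a share of 0.341. The share was 0.370 for CALCRL, 0.407 for ARPP21, 0.498 for SLC10A4, 0.624 for GTSF1, 0.669 for GPC3 and 0.747 for CHST7. The median of all 10086 genes was 0.969, and 35 of them lay below ALPK2 while 361 lay below CHST7. The 89 richest of the 881 ALPK2 carriers held 43.5% of its UMIs, and the 91 richest of the 907 GTSF1 carriers 23.5%.

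Where those UMIs lay was described by TNFAIP6, the hyaluronan-binding protein of the expanding cumulus. Barcodes with 5 or more TNFAIP6 UMIs per 10000 are called TNFAIP6 high. They made up 3676 barcodes of AF75 (25.7%, with 21.7% of its UMIs) and 1068 of AF76 (6.87%, with 8.01%). This class is a range and not a cell type: 520 barcodes of AF75 and 194 of AF76 lay between 4 and 6 per 10000, and 890 and 255 of the high barcodes rested on 1 TNFAIP6 UMI.

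In AF75, 5 of the 7 genes were at least 4-fold higher in the TNFAIP6 high class, and 0.674% of the 10086 genes were. The genes were chosen as low in AF76, which had a smaller share of TNFAIP6 high barcodes (6.87% against 25.7%). Nothing is therefore read from this count. CALCRL stood at 39.5 CPM in the high class against 3.63 in the low class, a ratio of 10.9 (9.65 to 12.3). SLC10A4 stood at 52.8 and 5.42, a ratio of 9.74 (8.81 to 10.8), and ARPP21 at 186 and 19.8, a ratio of 9.38 (8.90 to 9.89). These ratios ranked 7, 12 and 14 from the highest of all genes tested. GPC3 stood at 7.94 and 0.896 CPM, a ratio of 8.86 (6.88 to 11.5), and ALPK2 at 75.9 and 9.58, a ratio of 7.92 (7.33 to 8.57). The high class held 68.7% of the ALPK2 UMIs, 71.1% of those of GPC3, 72.2% of those of ARPP21, 73.0% of those of SLC10A4 and 75.1% of those of CALCRL. The cells are barcodes of 1 library, so the intervals do not speak for other follicles.

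GTSF1 and CHST7 did not share that pattern. GTSF1 had 302 UMIs in the high class and 1275, or 13.0 CPM, in the low class, a ratio of levels of 0.855 (0.752 to 0.970), and its direction turned when the class was cut at 2 per 10000 or when barcodes were thinned (log2 ratio 0.14 and 0.036). CHST7 was lower in the high class, at 7.39 CPM against 14.0, a ratio of 0.527 (0.452 to 0.612). The piRNA factor was therefore spread over both classes, and the sulfotransferase leaned to the low class. Of the GTSF1 carriers 19.2% were TNFAIP6 high, and of the CHST7 carriers 14.0%, against 25.7% of all barcodes and 64.0% of the GPC3 carriers.

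Across 5 bins of TNFAIP6 the same 5 genes were highest in the top bin, and most of the gap lay between the last 2 bins. ALPK2 ran from 9.11 CPM with no TNFAIP6 UMI through 9.16, 12.3 and 19.1 to 95.4 at 10 or more per 10000. ARPP21 ran from 20.6 through 15.6, 31.8 and 73.3 to 224, so the fourth bin was already above the ones before it. GPC3 stayed between 0.796 and 1.44 below the top bin, where it stood at 10.2 (8.83 to 11.7). CALCRL reached 49.3 there and SLC10A4 66.9, against 10.9 and 11.7 in the bin before. GTSF1 was highest in the middle bin, at 17.9 (15.7 to 20.2), and CHST7 was lowest in the top bin, at 5.87 (4.87 to 7.03). The fourth bin of AF75 had a median depth of 2465 UMIs, against 8278 in the top bin, and the part of depth in its levels was not tested.

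**Figure D2:**
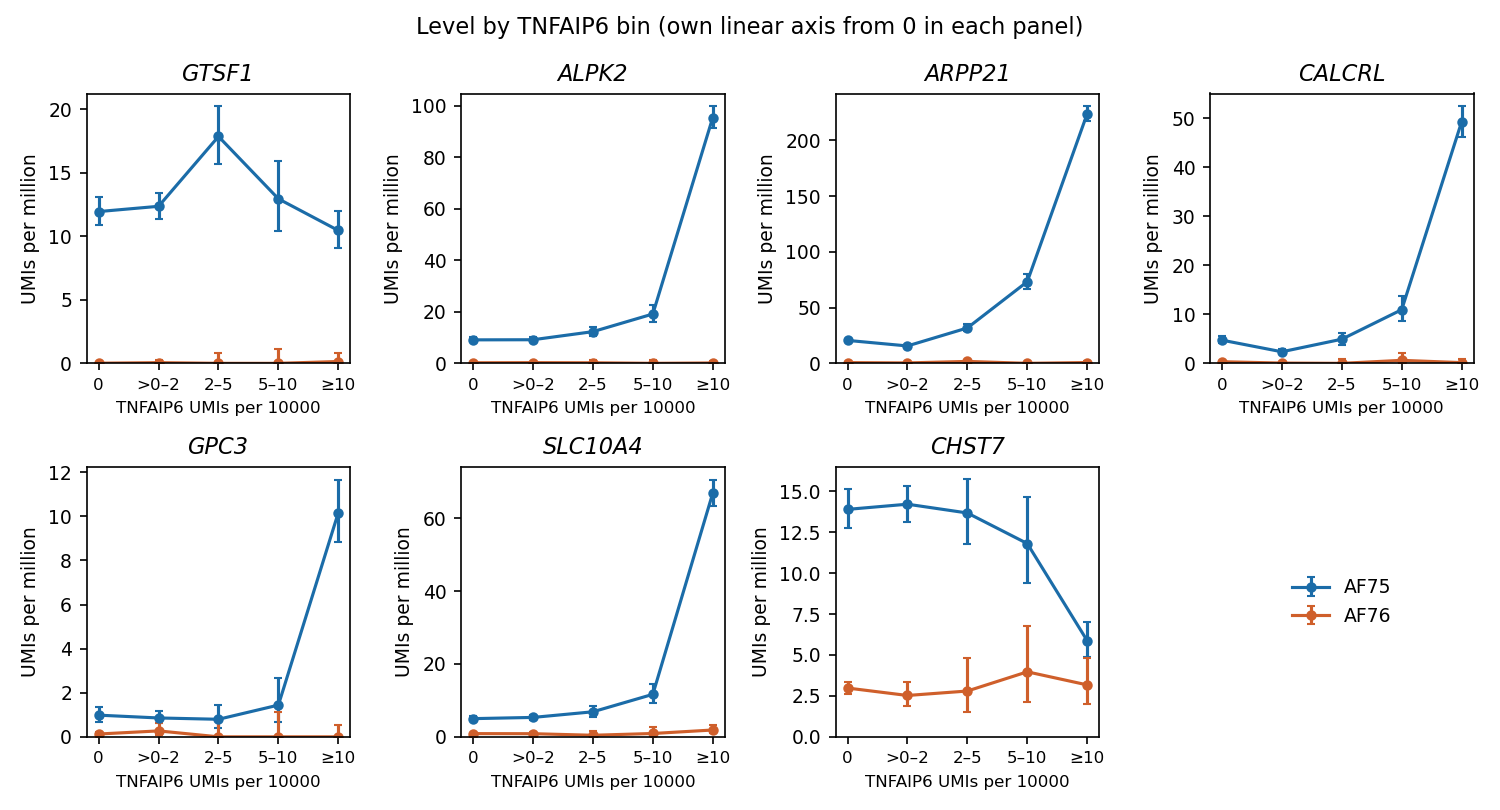
CPM (linear axis from 0, own scale in each panel) of the 7 genes against bins of TNFAIP6 UMIs per 10000 in AF75 (blue) and AF76 (orange), with exact Poisson 95% intervals. ALPK2, ARPP21, CALCRL, GPC3 and SLC10A4 are highest in the top bin of AF75, GTSF1 in the middle bin, and CHST7 is lowest in the top bin, while the AF76 lines lie near 0 except for CHST7.

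The TNFAIP6 high barcodes of AF76 did not carry these genes at the AF75 level. ALPK2 had 2066 UMIs in the high class of AF75 and 1 in that of AF76, a ratio of levels of 0.00129 (3.26e-05 to 0.00719). ARPP21 had 5048 and 5, a ratio of 0.00264 (0.000857 to 0.00616), and CALCRL 1074 and 3, a ratio of 0.00744 (0.00153 to 0.0218). GPC3 had 216 and 0, and with 3 counts taken as the limit it was at least 27.0-fold lower (a ratio of up to 0.0459 by the interval). SLC10A4 had 1436 and 16, a ratio of 0.0297 (0.0169 to 0.0484), and GTSF1 302 and 1, a ratio of 0.00882 (0.000223 to 0.0495). For ALPK2, ARPP21, CALCRL, SLC10A4 and GPC3 the ratio was lower than in the TNFAIP6 low class. There the ratios were 0.0240 (0.0158 to 0.0352), 0.0332 (0.0261 to 0.0417), 0.0753 (0.0507 to 0.108), 0.159 (0.127 to 0.197) and 0.162 (0.0902 to 0.274). Within AF76 the ratio of high to low class was 0.425 (0.0104 to 2.58) for ALPK2 and 0.745 (0.235 to 1.82) for ARPP21. This ratio was 1.08 (0.211 to 3.44) for CALCRL, 1.82 (1.00 to 3.10) for SLC10A4 and 0 (0 to 2.78) for GPC3. The lower ratios between follicles in the high class thus mainly restate the AF75 levels, and nothing further is read from them. Between the follicles CHST7 and GTSF1 went the other way. CHST7 stood at 0.464 (0.314 to 0.667) in the high class and 0.207 (0.183 to 0.233) in the low class. GTSF1 stood at 0.00131 (0.000159 to 0.00476) in the low class, on 2 AF76 UMIs, and this interval overlaps that of its high class. The cumulus markers VCAN, TNFAIP6 and SHAS2 together had 3056 CPM in AF75 and 625 in AF76, and TNFAIP6 within the high class stood at 3866 and 2369 CPM, so the high classes of the follicles were not alike in level.

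To set the share of each class aside, the UMIs that AF76 would hold were computed from the AF75 level of 10 classes, the 5 TNFAIP6 bins each with and without TOP2A. GTSF1 would then have had 1530 UMIs and had 3, a ratio of counted to expected of 0.00196 (0.000404 to 0.00573). ALPK2 would have had 1758 and had 28 (0.0159, 0.0106 to 0.0230), and ARPP21 4068 and had 82 (0.0202, 0.0160 to 0.0250). Without classes the expected numbers were 1602 for GTSF1 and 7103 for ARPP21. CALCRL would have had 901 and had 35 (0.0389), and GPC3 193 and had 17 (0.0880). SLC10A4 would have had 1125 and had 117 (0.104, 0.0860 to 0.125), and CHST7 1720 and had 375 (0.218, 0.196 to 0.241). A ratio of 0.1 or less remained for 5 of the 7 genes and for 0.129% of the 10086 genes. The gap between the follicles chose the genes, so nothing is read from this count or from the next one. With bins of VCAN, the chondroitin sulfate proteoglycan of the cumulus matrix, in place of TNFAIP6 it was 3 of the 7, and 0.0595% of the 10086 genes. The 3 were GTSF1 (0.00201), ALPK2 (0.0611) and ARPP21 (0.0987), while CALCRL stood at 0.154, GPC3 at 0.286 and SLC10A4 at 0.310.

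**Figure D3:**
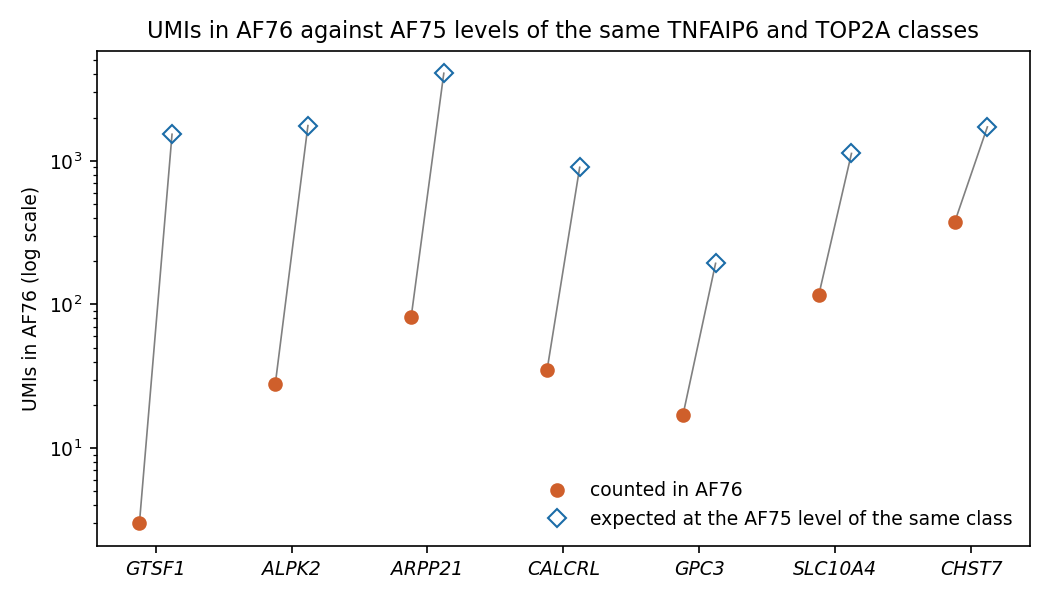
UMIs in AF76 (log scale) for each gene, as counted (orange) and as computed if every TNFAIP6 and TOP2A class of AF76 had the AF75 level of that class (open blue). The counted number lies below the computed one for all 7 genes, from 3 against 1530 for GTSF1 to 375 against 1720 for CHST7.

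TOP2A, the topoisomerase of dividing cells, had a UMI in 825 barcodes of AF75 (5.77%) and 295 of AF76 (1.90%). In AF75 2 of the 7 genes were at least 2-fold higher in those barcodes, where 3.35% of the 10086 genes were. As the genes were chosen as low in AF76, where such barcodes were fewer, nothing is read from this count either. ALPK2 stood at 47.5 CPM with TOP2A and 21.5 without, a ratio of 2.20 (2.01 to 2.42), and ARPP21 at 104 and 50.7, a ratio of 2.05 (1.92 to 2.18). At 3 or more TOP2A UMIs only ALPK2 remained. GTSF1 stood at a ratio of 1.40 (1.20 to 1.63) and CALCRL at 1.31 (1.11 to 1.54). The intervals of SLC10A4 (0.951 to 1.28) and GPC3 (0.380 to 1.02) included 1, and CHST7 was lower with TOP2A (0.714, 0.582 to 0.867).

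TOP2A and TNFAIP6 are not independent in AF75, since 296 of the 825 TOP2A positive barcodes were TNFAIP6 high. Within the TNFAIP6 high class none of the 7 genes reached 2-fold, where 2.98% of all genes did, and within the low class none did either, where 3.55% did. ALPK2 stood at 1.56 (1.41 to 1.74) and 1.68 (1.37 to 2.04) in the high and low class, and ARPP21 at 1.36 (1.26 to 1.45) and 1.83 (1.60 to 2.09). SLC10A4 and GPC3 were lower with TOP2A in the high class, at 0.736 (0.621 to 0.867) and 0.429 (0.236 to 0.725). TOP2A positive barcodes were deeper, with a median of 13988 UMIs against 9291, and the part of depth was not tested. In AF76, 4 of the ALPK2 UMIs lay in 3 TOP2A positive barcodes, and GTSF1, GPC3 and ARPP21 had none there.

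The joint presence of the genes was counted in the 9746 AF75 barcodes thinned to 5000 UMIs. All 10 pairs among ALPK2, ARPP21, CALCRL, GPC3 and SLC10A4 shared barcodes more often than their separate shares would give, from 4.15 to 7.37 times (median 4.79). Pairs of other genes were not counted in this way, so whether such values are particular to these genes cannot be said. ALPK2 and ARPP21 met in 277 barcodes where 59.1 were expected. ARPP21 and SLC10A4 met in 238 where 57.3 were expected, and GPC3 and SLC10A4 in 33 where 4.48 were. Of the barcodes with ALPK2 55.4% also had ARPP21, and of those with GPC3 57.8% did, where 11.8% of all thinned barcodes had it. ARPP21 was also the member in most barcodes, and relative to expectation its pairs with SLC10A4 (4.15) and CALCRL (4.31) were the lowest of the 10.

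The 11 pairs with GTSF1 or CHST7 all lay below 1, from 0.234 to 0.970. GTSF1 and CHST7 met in 12 barcodes where 24.0 were expected, and ARPP21 and CHST7 in 17 where 59.8 were (0.284). GTSF1 with ALPK2 (23 and 23.7) and with SLC10A4 (21 and 23.0) met about as often as their separate shares give. Without thinning, 4 of the GTSF1 pairs lay just above 1. GTSF1 and CHST7 then met in 67 barcodes where 69.0 were expected (0.971), and ARPP21 and CHST7 stood at 0.462. GTSF1 is thus not placed with the other 5 genes, although all 6 had few UMIs in AF76.

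Part of the joint presence goes with TNFAIP6. Within the 2042 thinned barcodes of the TNFAIP6 high class, the 10 pairs lay between 1.71 and 2.86 times the expected number, and 5 of them reached 2. Within the 7704 of the low class they lay between 2.90 and 11.9, although the highest, of CALCRL and GPC3, rests on 4 barcodes. ALPK2 and ARPP21 met there in 69 barcodes where 10.0 were expected (6.87). When the expected number was taken within each of the 5 TNFAIP6 bins and summed, the 10 pairs lay between 1.75 and 2.86, and 3 reached 2. All 10 stayed above 1 in each of these settings.

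**Figure D4:**
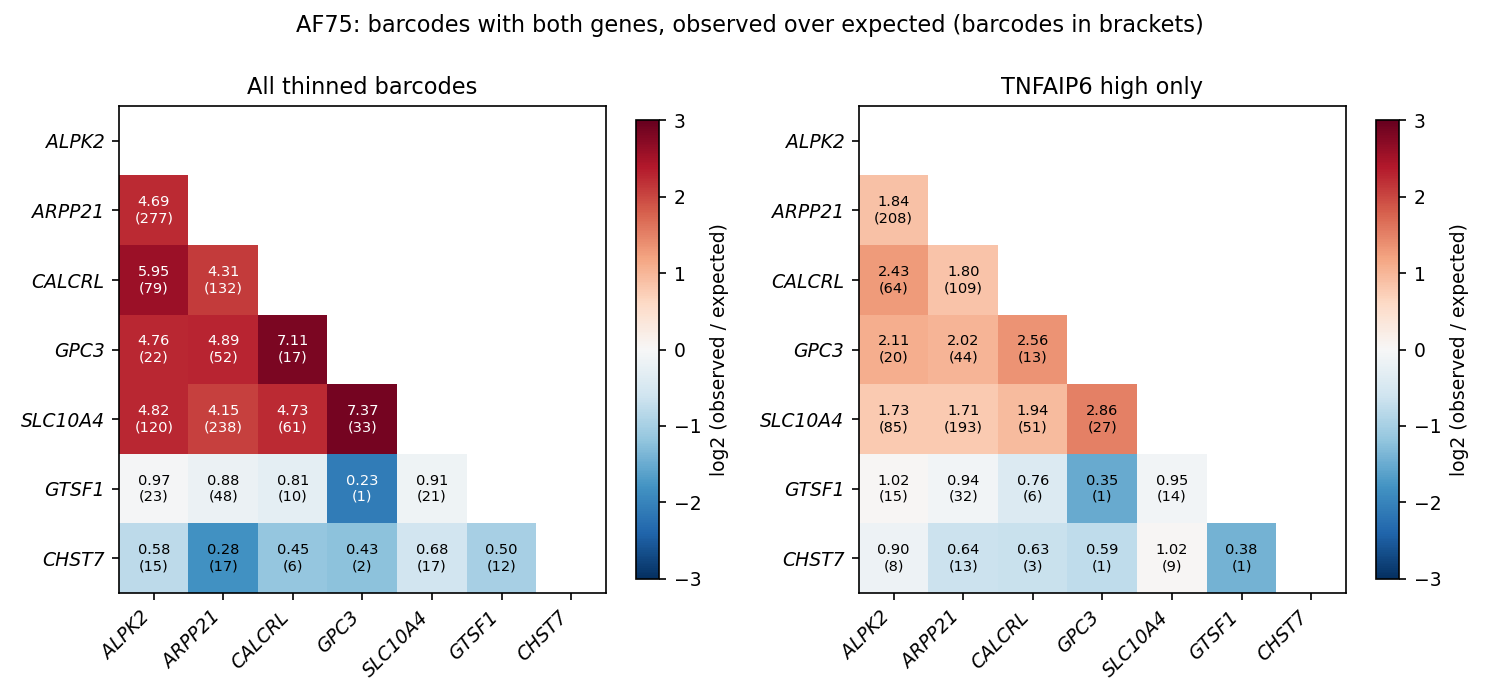
AF75 barcodes thinned to 5000 UMIs: observed over expected number of barcodes with both genes (colour, log2 scale; number and, in brackets, barcodes in each cell), over all 9746 barcodes (left) and the 2042 of the TNFAIP6 high class (right). The 10 pairs among ALPK2, ARPP21, CALCRL, GPC3 and SLC10A4 are above 1 in both panels, at 4.15 to 7.37 and 1.71 to 2.86, and the pairs of GTSF1 and CHST7 are near or below 1.

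Counted per barcode without thinning, 9730 AF75 barcodes had none of the 7 genes, 3215 had 1, 899 had 2, 317 had 3, 106 had 4, 20 had 5 and 2 had 6. The 128 with 4 or more compare with 5.61 if the genes were placed independently, and after thinning 39 compare with 1.39. Other sets of genes were not counted in this way. Of the 22 with 5 or more, 19 were TNFAIP6 high, 3 were TOP2A positive and 3 had over 5000 genes, the study's upper limit. Doublets were neither called nor removed, and their part in the joint presence was not tested. In AF76 489 barcodes had 1 of the genes, 10 had 2 and none had more.

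The other genes of the cells that carried these 7 were read in AF75. Barcodes with 2 or more of the 7 genes were compared with those that had none. Over all barcodes, the 10 highest ratios belonged to macrophage genes such as MRC1, MARCO, CCL14 and C1QA, or to genes whose UMIs lay nearly all in the immune-like barcodes. For MRC1 all 277 UMIs of the carriers lay in 2 barcodes. Without the 4 immune-like barcodes the highest included SOX9 at 33.8 times (27.3 to 42.2), ST6GALNAC5 at 30.0, RBP4 at 29.6, NTM at 24.0, KLHL31 at 23.8, CNN1 at 22.2, PTGS2 at 21.1, EPHA3 at 21.1 and ITGA4 at 20.9. SOX9 is a transcription factor of cartilage and testis, and PTGS2 is the cyclooxygenase that makes prostaglandins in the expanding cumulus. RBP4, NTM, CNN1, PTGS2 and EPHA3 also had ratios of AF76 to AF75 of 0.1 or less, from 0.0232 for PTGS2 to 0.0980 for CNN1. ITGA4 did not, at 0.635, with 32 of its UMIs in AF75 in immune-like barcodes.

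Taken 1 gene at a time, again without the immune-like barcodes, the carriers fell apart in the same way. Of 10085 other genes, 112 stood 4 times or more higher in ARPP21 carriers, 96 in ALPK2, 90 in GPC3, 67 in CALCRL and 60 in SLC10A4 carriers. For GTSF1 and CHST7 no gene did. The highest ratio with over 100 UMIs among the first 3 genes was 2.91 for ALDH1A2, an enzyme of retinoic acid synthesis, in GTSF1 carriers, and 2.02 for ANGPT2, an angiopoietin, in CHST7 carriers. The cumulus markers stood at 3.68 times in ALPK2, 3.79 in CALCRL, 3.83 in GPC3, 4.04 in SLC10A4 and 5.59 in ARPP21 carriers, against 0.833 in GTSF1 and 0.456 in CHST7 carriers. The mural markers AREG and CYB5A were at 0.354 to 0.479 in the first 5, at 0.872 in GTSF1 carriers and at 1.31 in CHST7 carriers. The cumulus markers include TNFAIP6, so their values are not independent of the TNFAIP6 classes above.

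CALCRL and GPC3 are also known from vessels and stroma, so markers of those cells were read beside them. The summed endothelial list stood at 4.11 times in CALCRL carriers, 3.76 in ALPK2, 3.30 in ARPP21, 3.01 in GPC3 and 2.62 in SLC10A4 carriers. In GTSF1 and CHST7 carriers it stood at 0.857 and 0.681. KDR, the receptor of vascular endothelial growth factor, gave 338 of the 365 UMIs of the list in CALCRL carriers (6.22 times) and 554 of 591 in ALPK2 carriers (6.22 times). In CALCRL carriers PECAM1 stood at 0.647 times, TIE1 at 1.59 on 9 UMIs and VWF at 1.04 on 1 UMI, and TEK had no UMI. EMCN had 1 UMI in CALCRL carriers and 1 in the others, and CDH5 had no UMI in AF75. In GPC3 carriers KDR gave 110 of 128 UMIs (3.98 times), PECAM1 stood at 0.653, TEK at 4.27 and TIE1 at 2.00 on 5 UMIs each, and VWF at 2.44 on 1 UMI. All 7 theca or stromal markers summed to 2.80 CPM in AF75 and 10.5 in AF76, and in carriers they stood between 0.523 times for ALPK2 and 1.46 for GTSF1. Immune markers stood between 0.595 times for ARPP21 and 1.24 for CHST7, again without the immune-like barcodes. Those barcodes of AF75 held 2 UMIs of ALPK2 and 1 each of GTSF1, ARPP21 and CALCRL. Because they were left out, nothing is read from the immune values.

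Partners and relatives of the 7 genes were read from lists that were chosen with earlier results known. Of the RAMP partners and ligands of CALCRL, only RAMP2 and the adrenomedullin gene ADM had 200 UMIs in AF75, and their ratios were 1.32 and 1.39, so neither was low in AF76. RAMP3 had 91 and 78 UMIs and RAMP1 11 and 8. Of the glypicans and syndecans 7 could be read beside GPC3, with a median ratio of 0.921. None was at 0.1 or less, where 0.194% of the 10290 genes with 200 or more UMIs in either library were. GPC4, the neighbour of GPC3 on the X chromosome, was lowest at 0.440 (0.429 to 0.450), and SDC1 was at 0.542. For CHST7, 8 genes of chondroitin sulfate synthesis had a median ratio of 0.933 and CHST11 was lowest at 0.548.

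Of 15 genes of the piRNA pathway that GTSF1 serves, only TDRD7 had 200 UMIs in AF75, at a ratio of 1.03. PIWIL1, PIWIL2, TDRD5 and MOV10L1 had no UMI in either follicle, and PIWIL4 had 3 and 4. A count of 0 UMIs in AF75 allows up to 0.0239 CPM. SLC10A3 and SLC10A7, the 2 relatives of SLC10A4 that could be read, stood at 1.02 and 0.945. Among the alpha kinases, TRPM7 stood at 0.492 and ALPK3 and EEF2K at 0.862 and 0.951. The R3H domain relatives of ARPP21, R3HDM1 and R3HDM2, stood at 1.04 and 1.10. None of the relatives with 200 UMIs in AF75 was at 0.1 or less. As 0.194% of the 10290 genes with 200 or more UMIs in either library were, nothing is read from that.

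The matrix genes of the expanding cumulus differed from these relatives. Of 8 with 200 UMIs in AF75, SHAS2 (0.0334) and PTGS2 (0.0232) were at 0.1 or less, and VCAN was at 0.198, TNFAIP6 at 0.234, HAPLN1 at 0.474, PTX3 at 0.604, ADAMTS1 at 0.786 and CD44 at 1.03. Their median was 0.354, where the median of all genes was 0.998. In AF75 TNFAIP6 high barcodes PTGS2 and SHAS2 stood at 9.75 and 5.97 times the low class, beside 7.92 to 10.9 for the 5 members that were high there. The other matrix genes ranged down from 3.68 for VCAN and 2.52 for HAPLN1 to 1.05 for ADAMTS1, 0.738 for CD44 and 0.390 for PTX3, so the list did not move as 1 group. TNFAIP6 itself, on which the classes are cut, stood at 42.1.

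The pattern of each gene was also compared over 20 groups (follicle, TNFAIP6 bin and TOP2A class) by Pearson's r of log2(CPM + 1), a measure in which points of a library share its depth and the gap between follicles. ALPK2 and ARPP21 were most alike (0.975), each followed by VCAN (0.968 and 0.970). CALCRL stood at 0.957 with ALPK2. SLC10A4 was nearest to NTM (0.965) and FSTL4 (0.960), and GPC3 to PTGS2 (0.952) and RBP4 (0.941). GTSF1 was nearest to ENSSSCG00000036545 (0.957) and then ARPP21 (0.916). CHST7 was nearest to LENG8 (0.895) and ENSSSCG00000038960 (0.871), which had 25008 and 20364 UMIs and 3995 and 3406 in AF75 and AF76.

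The 7 genes lie on 6 chromosomes in Sscrofa11.1, and in the RefSeq annotation GTSF1 spans chr5:19639326-19661773, ALPK2 chr1:162175241-162308074, ARPP21 chr13:20955414-21088424, CALCRL chr15:92233264-92332459, SLC10A4 chr8:38378878-38385748, CHST7 chrX:41192993-41234654 and GPC3 chrX:109536495-109973605. Of their 14 nearest neighbours 12 were in the deposited gene list. ITGA5 beside GTSF1 stood at a ratio of 0.530, MALT1 and NEDD4L beside ALPK2 at 1.18 and 0.698, PDCD6IP beside ARPP21 at 0.930, SLAIN2 beside SLC10A4 at 0.918 and RP2 beside CHST7 at 0.781. STAC beside ARPP21 had 1 UMI in all and TFPI beside CALCRL 12 and 9. The low counts in AF76 were therefore mostly not shared with the nearest gene, which in some cases lay far away. PDCD6IP and STAC lay 1291 and 341 kb from ARPP21, and RP2 lay 254 kb from CHST7.

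ZAR1 beside SLC10A4 and ZSWIM2 beside CALCRL were the exceptions. ZAR1, a maternal-effect gene of the oocyte on the same strand 0.772 kb past the end of SLC10A4, had 121 UMIs in AF75 and 3 in AF76 (0.0244, 0.00496 to 0.0730). Of its 104 AF75 barcodes 64 also held SLC10A4, where 6.45 would be expected. Whether some of these UMIs come from transcripts that run from one gene into the next was not tested. ZSWIM2, 368 kb from CALCRL, had 45 and 4 UMIs (0.0875, 0.0229 to 0.240). Of its 37 AF75 barcodes 8 held CALCRL, where 1.27 would be expected. These overlaps were counted without thinning, and the part of depth in them was not tested. Counted in the same way in AF75, GPC3 met GPC4 at 1.55 and GTSF1 met ITGA5 at 1.39 times the expected number.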

How the data were processed

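The authors made 1 10x Genomics 3′ library (chemistry 3.1) from the somatic cells of each of 2 follicles, ran CellRanger 6.0.2 against Sscrofa11.1, and deposited raw counts (whole UMIs of each gene in each called barcode, neither filtered nor normalized). Totals were 125409747 and 127414267 UMIs. No column of another sample was met (0).

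All deposited barcodes were used. UMIs were summed over barcodes and divided by all UMIs. The 95% intervals are exact. They follow Poisson counts for a CPM value, the Clopper-Pearson method for a share and the summed count for a ratio. Beside a 0 stands the level of 3 counts. With 1 library for each follicle no test was made. Barcodes were not clustered, and doublets were not removed. Thinning drew 5000 UMIs without replacement (seed 1). Classes used 5 or more TNFAIP6 UMIs per 10000 and 1 or more TOP2A UMI.

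The member genes and gene lists were chosen with earlier results of these data known. Named besides them were TNFAIP6 and TOP2A, the 5 other genes lowest in AF76, the 10 highest in barcodes with 2 or more members, the 2 most alike to each member, the nearest genes on the chromosome and the listed genes. A gene that these rules name is not reported here. Genes singled out beyond that (ALDH1A2, ANGPT2, and the genes of 1 CALCRL barcode) were chosen after their values were seen.

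On simulated counts for 10086 genes with 200 changed between AF75 and AF76, the median ratio was 0.00981 for a true 0.01 and 0.0991 for a true 0.1. Python 3.11.15, numpy 2.4.6, pandas 2.3.3, scipy 1.17.1 and matplotlib 3.10.9 were used.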

Additional observations from a re-analysis of the deposited data

How the results depend on the processing

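No paired analysis was possible because each follicle is 1 library, and for the same reason no replicate could be left out. The count of 6 genes at a ratio of 0.1 or less between the follicles and that of 5 genes 4-fold or more higher in the TNFAIP6 high class kept within 1.5 times under every alternative tried for them: the study's limits on genes and mitochondrial UMIs, library size without mitochondrial and ribosomal protein genes, mean per-barcode CPM, thinning, leaving out shared barcodes, and other TNFAIP6 cuts. With thinned shares the first count was 5, since GPC3 stood at log2 -3.24. Ratios between the follicles that moved by over 1.5 times are printed beside the main values. Leaving out immune-like and endothelial-like barcodes, requiring 3 TNFAIP6 UMIs, and thinning within classes were chosen after seeing the data. Counts that did not keep were the genes 2-fold or more higher with TOP2A (1 at 3 or more TOP2A UMIs, fewer barcodes by construction), the pairs at 2 or more (3 with the expected number taken within TNFAIP6 bins) and the genes at 0.1 or less of the expected AF76 UMIs (3 with VCAN bins), and beyond the narrower classes the cause was not tested. The direction turned for GTSF1 between TNFAIP6 classes (log2 0.14 at a cut of 2 and 0.036 when thinned), for SLC10A4 with TOP2A at 3 or more UMIs (log2 -0.083), for pairs of GTSF1 without thinning (log2 0.15 with ALPK2, 0.012 with ARPP21, 0.035 with CALCRL and 0.12 with SLC10A4) and for GTSF1 with ALPK2 within bins (0.038). These values all lie near 0, and the cause was not tested. Of 210 values under alternatives, 146 moved by less than their counting interval, 56 moved by more with no change of direction and 8 changed direction. Counts of 3 to 35 UMIs of GTSF1, GPC3, ALPK2 and CALCRL in AF76 limit what can be said of their distribution there.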
